A study of Mus musculus with 2 samples.

Results

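Splice junctions shorter than 100 nt were taken from the list of junctions deposited for the series. A junction is the stretch that a read skips when its parts align to the genome on either side of a gap. Members were chosen by length, below 100 nt, and by support, at least 10 reads summed over both libraries, with chromosome Y left out. Of the 446811 junctions in the list 8595 were members, and 130587 junctions of any length had at least 10 reads outside chromosome Y. Both choosing values, length and summed reads, are given below as description.

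The samples are polyA-selected RNA of C57BL/6J mice, an inbred laboratory strain, 8 weeks of age, with no treatment or genotype difference between them. There is 1 group, labelled large intestine, with 2 biological replicates that the labels record as pools of both sexes under 1 donor record. Stranded paired reads of 76 nt came from RNA longer than 200 nt. Gene-level depth was 50189619 expected counts in replicate 1 and 58233142 in replicate 2. Each junction carries 2 read fields. The sources used here do not tie a field to a replicate, so they are called the first and the second field, and a pair of read numbers gives the first field and then the second.

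The tissue label was checked against markers. All 7 colon markers, such as Car1, Aqp8 and Hoxa13, lay below 1 TPM in both libraries, with 0.27 TPM as the highest value. The summed level of 4 small intestine markers was 2004 TPM (replicate 1) and 5459 TPM (replicate 2), and that of 3 Paneth cell markers 9787 and 16790 TPM. Of the small intestine markers only Fabp6 was higher in replicate 2 (477 and 5279 TPM). Sis (281 and 79.7), Lct (152 and 9.94) and Apoa4 (1094 and 91.1) were higher in replicate 1. Large intestine is therefore used here only as a label. Kdm5d, a gene of the Y chromosome, measured 6.4 and 0 TPM (replicates 1 and 2 in that order), and Xist, the RNA of the inactive X chromosome, 0.02 and 20.4 TPM, although the labels describe pooled sexes for both. The part of tissue region and sex in any difference between the fields was not tested.

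Introns are removed by the spliceosome, which recognises the donor site at the 5′ end, the branch point and the acceptor site at the 3′ end. In nearly all mammalian introns the donor starts with GT and the acceptor ends with AG, and a small class starts with GC. Short introns leave little room between donor and branch point, and they are usually recognised across the intron rather than across the exon. An aligner can also open a gap of similar size at a genomic deletion or within repeated sequence, and such gaps need not start with GT or end with AG.

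The sequences below were chosen to show the most abundant members, introns poor and rich in GC, some of the shorter introns between coding exons and a rare pair of ends. Each was read from a GENCODE M21 transcript that keeps the intron inside an exon, and positions of the sequences are on mm10. Capitals mark the first and the last 2 bases, that is the donor and acceptor dinucleotides. All lie between coding exons.
Crip1, 79 nt, chr12:113153376-113153454, plus strand: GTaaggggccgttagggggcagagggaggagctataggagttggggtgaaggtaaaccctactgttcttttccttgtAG
Actb, 87 nt, chr5:142905477-142905563, minus strand: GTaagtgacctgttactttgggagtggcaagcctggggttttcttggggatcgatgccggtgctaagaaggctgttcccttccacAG
Eef1a1, 89 nt, chr9:78479535-78479623, minus strand: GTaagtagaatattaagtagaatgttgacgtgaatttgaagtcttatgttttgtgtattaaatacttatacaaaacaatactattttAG
Tmem259, 71 nt, chr10:79978321-79978391, minus strand: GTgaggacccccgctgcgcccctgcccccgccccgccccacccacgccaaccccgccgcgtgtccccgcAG
Ndufs7, 70 nt, chr10:80255020-80255089, plus strand: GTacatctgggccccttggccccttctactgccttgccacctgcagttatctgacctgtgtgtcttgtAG
Pop5, 65 nt, chr5:115238070-115238134, plus strand: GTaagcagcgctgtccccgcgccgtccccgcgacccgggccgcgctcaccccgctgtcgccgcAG
Adck5, 63 nt, chr15:76594611-76594673, plus strand: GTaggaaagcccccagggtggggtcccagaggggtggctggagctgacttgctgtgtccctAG
2310061I04Rik, 50 nt, chr17:35892990-35893039, minus strand: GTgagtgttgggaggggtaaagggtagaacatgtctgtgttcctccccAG
Dpep2, 85 nt, chr8:105989384-105989468, minus strand: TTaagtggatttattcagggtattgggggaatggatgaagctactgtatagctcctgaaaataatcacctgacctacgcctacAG

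The members carried 3732364 of the list's 43037344 reads, or 8.67%. They made up 6.58% of the junctions with at least 10 reads. The median member had 113 reads, against 99 for the 11788 junctions of 100 nt up to just under 200 nt, called the next length class, and 58 for those of 200 nt and longer (110204 junctions). Lengths were not spread evenly. Only 260 members lay between 31 nt, the shortest length in the list, and 59 nt, and 180 between 60 and 69 nt. There were 1735 members of 70 to 79 nt, 3730 of 80 to 89 nt and 2690 of 90 to 99 nt. The most frequent length was 82 nt, with 391 members. No junction of 26 nt, the length spliced out of Xbp1 RNA under endoplasmic reticulum stress, was therefore in the list.

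**Figure D1:**
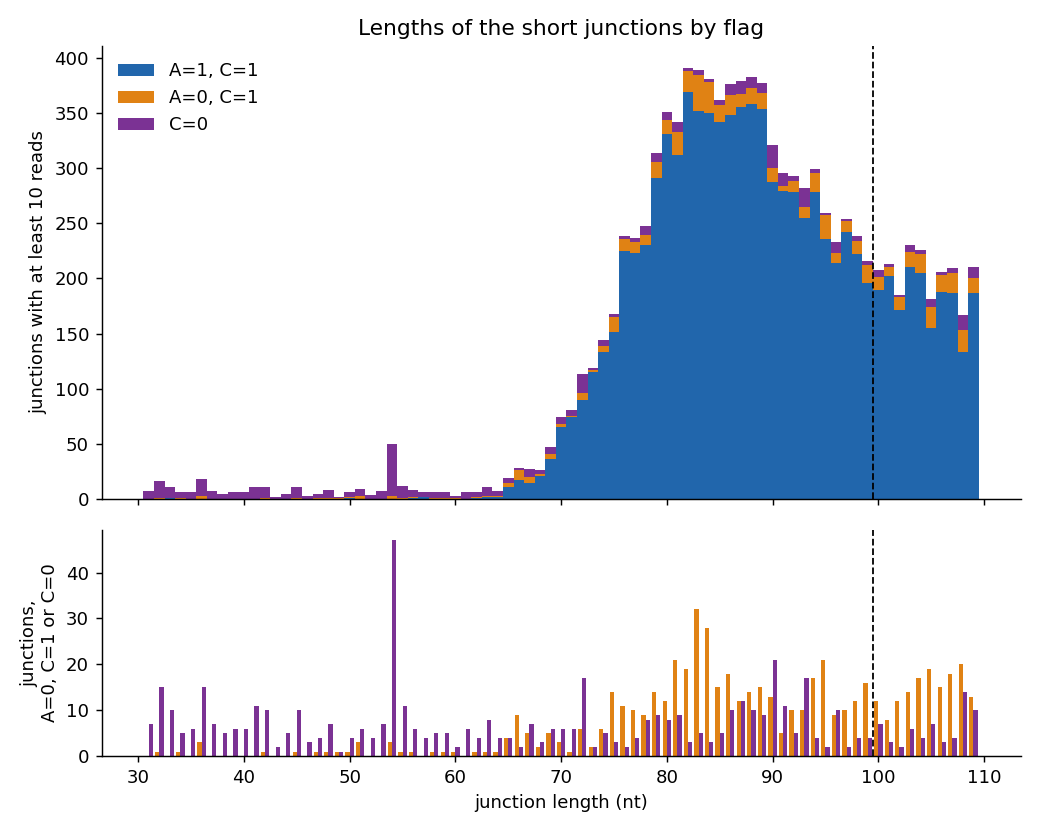
Number of junctions with at least 10 reads (y axis) at each length from 31 to 109 nt (x axis), coloured by the flags A and C in the junction name, with the unannotated or non-canonical classes alone in the lower panel. The dashed line is the upper limit of the members; blue bars rise steeply from 65 nt to a peak of 369 at 82 nt, and purple bars have a single spike of 47 at 54 nt.

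Each junction name carries flags A and C, which no source used here defines. Both were compared with the annotation. Of the 7679 members flagged A=1 99.1% had the length of an annotated intron and the exact exon length to a linked neighbouring junction of the annotated size, against 9.93% of the 916 members flagged A=0. Of all members 7485 (87.1%) were tied in this way to 1 gene. When chromosome and strand were left out of the match, 7516 of the 7539 members tied to 1 intron still fell on the right chromosome and strand. All 1592 matched members flagged C=1 whose sequence could be read began with GT and ended with AG. Matched members flagged C=0 that could be read included a GC-AG intron in Pmf1 (94 nt, 13 and 16 reads) and a TT-AG intron in Dpep2 (85 nt, 4 and 19 reads), the latter printed above. Flag classes differed in length. The 7664 members flagged A=1 and C=1 had a median length of 86 nt and a median of 135 reads. The 435 flagged A=0 and C=1 had a median of 84 nt and 21 reads, and the 481 flagged A=0 and C=0 a median of 61 nt and 20 reads. Below 60 nt only 6 of 260 members were flagged A=1 and 26 were flagged C=1. The annotation itself holds 225 introns of 31 to 59 nt among its 13163 introns below 100 nt.

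Base composition varied widely. Over the 1595 matched members that could be read the median GC content was 57.7%, with 44.7% and 67.1% at the 10th and 90th percentiles, against a median of 55.5% over 1784 junctions of the next length class read in the same way. The Eef1a1 intron above was 23.6% GC and the Tmem259 intron 83.1%, within a full range of 21.9% to 86.5%. Median GC content was 59.7% at 60 to 69 nt (44 introns), 58.7% at 70 to 79 nt, 57.3% at 80 to 89 nt and 56.9% at 90 to 99 nt. The donor began GTGAG in 37.3% of the short introns and in 32.4% of those of the next class. It began GTAAG in 18.4% and 18.5%. The 20 bases before the acceptor's last 3 were a median of 70% pyrimidine in the short and 75% in the longer group. The motif CTNAC, a common branch point sequence searched on the transcribed strand in the last 50 bases, occurred in 36.1% of the short introns and 31.6% of those of the next class. Introns with such a match among those printed above are Ndufs7, Pop5, Adck5 and Dpep2. A match is a description of the letters and not a mapped branch point. These are shares of introns that some annotated transcript retains, which is a selected subset.

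The most abundant member was the 79 nt intron of Crip1 (ENSMUSG00000006360.11; junction on mm9 chr12:114391587-114391665, plus strand). Crip1 encodes cysteine-rich intestinal protein 1, a small LIM domain protein. Its junction had 113248 first-field and 112221 second-field reads, and its gene measured 13119 and 10145 TPM (replicates 1 and 2; the same order holds for gene levels below). The 87 nt intron of the beta-actin gene Actb (ENSMUSG00000029580.14; chr5:143667156-143667242, minus strand) had 38378 and 29009 reads. A second Actb member of 95 nt had 15398 and 18995 reads, so members of the same RNA leaned to different fields. The brush border peptidase gene Naaladl1 gave an 88 nt member with 14943 and 12871 reads and an 89 nt member with 9657 and 13791. A 99 nt member of the translation elongation factor gene Eef1a1 had 11127 and 15569 reads. Anpep, which encodes aminopeptidase N, had 17547 and 8728 reads over a 76 nt member and 11979 and 7863 over a 97 nt member. Both Anpep members were higher in the first field, with gene levels of 2790 and 1852 TPM. A 95 nt member of Tmbim6, an endoplasmic reticulum membrane protein gene, had 8767 and 8488 reads. The 10 members with the most reads were all flagged A=1 and C=1 except a 36 nt member near Lypd8, described further below.

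Around the Crip1 intron 8 further members flagged A=0 had both ends within 12 nt of its ends. Together they had 368 reads, or 0.163% of the reads of the annotated junction, with 14 to 163 reads each. Among all members flagged A=0, those with both ends within 12 nt of a more abundant A=1 junction numbered 94 of 435 with C=1 and 32 of 481 with C=0. Their reads were a median of 3.61% of the annotated junction's reads in the C=1 class and 0.291% in the C=0 class. In the C=1 class 93 of the 94 kept an end of the annotated junction, while in the C=0 class 23 of the 32 kept neither.

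The shortest members matched to introns were few. The 57 nt member of Gcdh, the glutaryl-CoA dehydrogenase gene of lysine breakdown, had 232 and 174 reads. Hnrnph1, which encodes a splicing regulator that binds runs of G, gave a 56 nt member with 62 and 80 reads. From the same donor a 77 nt junction of 10 and 9 reads used a later acceptor, so the shorter intron was the more abundant of the pair in both fields. The 63 nt Adck5 intron printed above had 195 and 216 reads. In 2310061I04Rik the 50 nt intron printed above had 10 and 14 reads, while a 73 nt intron with the same donor had 328 and 409. A 57 nt member of the syntaxin gene Stx4a had 18 and 4 reads, and a 62 nt member of the ubiquitin ligase gene Rnf167 had 8 and 4. At the lower edge of the whole list, 7 members of 31 nt had 10 to 121 reads, all flagged A=0 and C=0.

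Members with a host gene of even spacing between its matched introns numbered 7475, in 3300 genes. Of these genes 1787 (54.2%) held 1 member and 63 held 10 or more. Of the 3285 host genes with a measured level 97.1% were at 1 TPM or more in both libraries. Host genes were found through junctions of at least 10 reads, so this share follows largely from the rule. Large genes with many exons led the count. Lama5, a laminin chain of basement membranes, held 31 members among 77 matched junctions. Cpsf1, a subunit of the pre-mRNA cleavage and polyadenylation complex, held 28 among 38, and Abca2, a lipid transporter gene, 23 among 44. Stab1, a scavenger receptor gene, held 21, and Flna, which encodes the actin crosslinker filamin A, 20 among 48. The median Flna member had 1202 reads, the median Cpsf1 member 267.5 and the median Lama5 member 69. Within Lama5 the lengths ran from 72 to 99 nt. Acadvl, a mitochondrial fatty acid oxidation gene, held 13 members among 19 matched junctions.

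**Figure D2:**
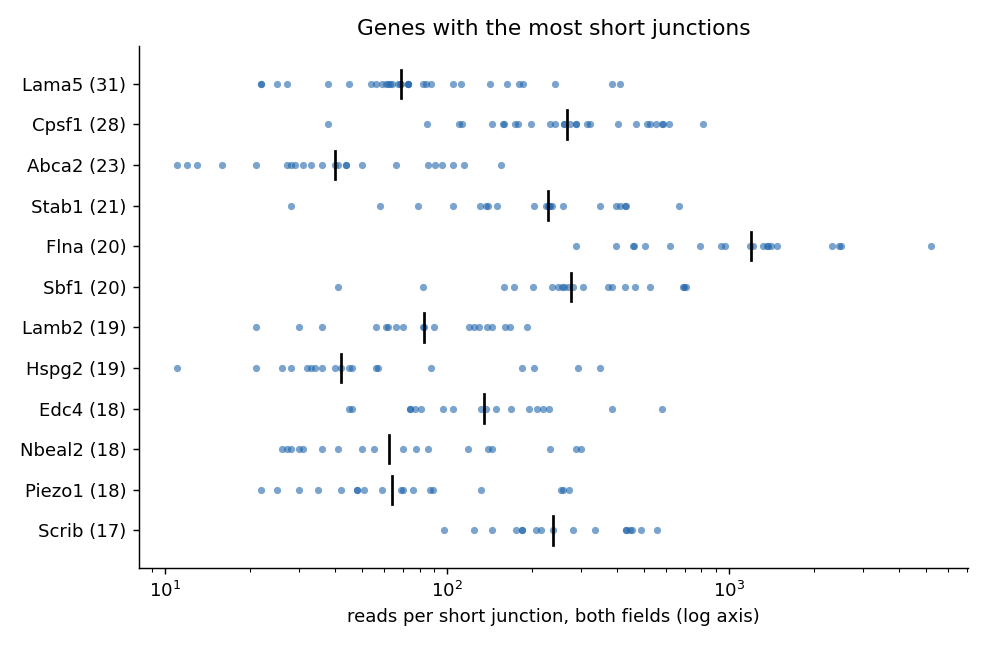
Reads per short junction, summed over both fields on a log axis (x axis), for the 12 genes with the most members (y axis, number of members in brackets). Each point is 1 junction and the vertical bar is the median; the median of Flna lies furthest right at 1202 reads although its lowest points overlap other genes, and that of Lama5 is 69.

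Reads over a member were compared with its matched neighbours in the same gene. Among the 5876 annotated members with a matched junction on both sides, the median log2 ratio of the member's reads to the mean of its neighbours was -0.09, with -1.16 and 0.87 at the 10th and 90th percentiles. The same median was -0.13 over 7776 junctions of the next length class and -0.11 over 62365 longer junctions. Members more than 2-fold below their neighbours' mean made up 13.4%, against 15.4% and 17.5% in the longer classes. These are values of junctions from shared genes and carry no test.

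Several gene groups were followed by symbol. Ribosomal protein genes held 39 members in 31 genes with 55974 reads, among them Rpl8 (88 nt, 5082 and 6822 reads) and Rps2 (88 nt, 2463 and 5482). Oxidative phosphorylation genes held 22 members in 15 genes, led by Uqcrc1 (97 nt, 4577 and 6396 reads) of complex III and Ndufs7 (70 nt, 2571 and 3775) of complex I, whose intron is printed above. Collagen genes held 61 members in 16 genes but 9244 reads, led by Col6a2 (94 nt, 842 and 1084 reads), and splicing factor genes 35 members in 22 genes, led by Hnrnpab (80 nt, 2473 and 1661). Tubulin and actin genes held 24 members with 126480 reads, most of them in Actb. Genes whose symbol begins with H2, of the major histocompatibility region, had 2 members with a structural match, in H2-Ke6 and H2-Oa, and 3 others were placed only inside exons of H2-T3 and H2-K1. Antibody genes with a structural match had 1, in Ighg3 (99 nt, 117 and 168 reads). No member was matched to an alpha-defensin gene, and neither was any longer junction, so this list could not be followed by the match.

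The fields were then set side by side. Each field was scaled by its total over all junctions, 20305017 reads in the first and 22732327 in the second, and 1 read was added to each count. With a field taken as 1 library against 1 there is no replicate check and no p-value. Of the members 1507 of 8595 (17.5%, exact binomial 95% interval 16.7 to 18.4) were at least 2-fold apart, against 24.2% of all junctions with at least 10 reads. The share was 19.4% (18.7 to 20.1) in the next length class and 25.2% (24.99 to 25.5) at 200 nt and longer. The first field was the higher in 1092 of these members (12.7%, against 18.7% of all junctions) and the second in 415 (4.83%, against 5.52%). Under median-ratio scaling, which moved all log2 values by 0.23 towards the second field, the counts became 735 and 675. The first field was the higher in 72.5% of the members called under the totals and 52.1% under the median ratio, beside 77.2% and 60.3% over all junctions. Intervals cover counting error only, and junctions of the same gene are not independent. With at least 100 reads, 7.68% of 4546 members, 9.62% of 5874 junctions of the next length class and 13.4% of 40405 longer ones were 2-fold apart. All 3 shares were lower than at 10 reads, and their order by length was the same.

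**Figure D3:**
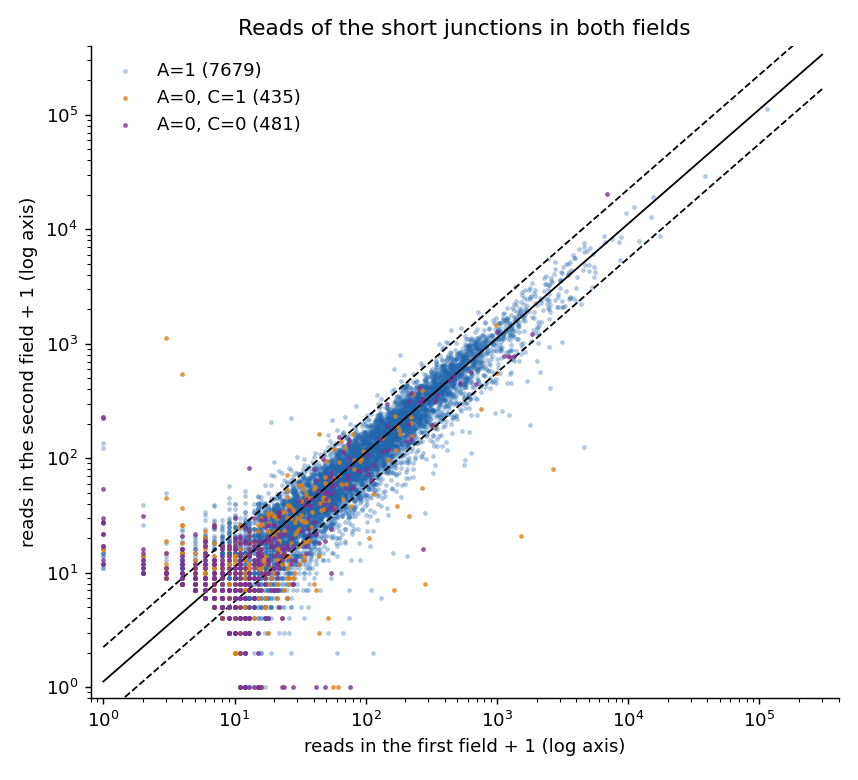
Reads of each of the 8595 members in the first field (x axis) and the second field (y axis), each plus 1, on log axes. The solid line is the ratio of the field totals and the dashed lines are 2-fold from it; the cloud narrows with depth, while a few points such as the 36 nt member near Lypd8 (6943 and 20246 reads) lie outside it.

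Classes of members differed in this share. It was 15.6% (14.8 to 16.4) for members flagged A=1, 31.3% (26.9 to 35.9) for A=0 with C=1 and 35.97% (31.7 to 40.4) for A=0 with C=0, the last 2 with median reads of 21 and 20 against 135. By length it was 38.1% among the 260 members of 31 to 59 nt and 16.9% among the 8335 of 60 to 99 nt. Median reads in these 2 length groups were 19 and 118. Reads in both fields were present for 8527 members, and 68 (0.79%) had none in 1 of them. That share was 0.96% over all junctions with at least 10 reads and 0.69% in the next length class. The median log2 ratio of the second to the first field was 0.60 for the 39 ribosomal protein members, 13 of which were 2-fold apart. It was -0.60 for the 61 collagen members, with 20 apart, and 0.12 for oxidative phosphorylation, with 0 of 22 apart. Reads per member differed between these lists, with medians of 164, 89 and 740, and the share apart was lower at higher reads. Among tubulin and actin members 8 of 24 were apart, and among splicing factor members 2 of 35. These calls, under the totals, stand against 24.2% of all junctions and 17.5% of all members. The median log2 ratio was -0.09 over all members and -0.23 over all junctions. Under median-ratio scaling the median log2 ratios were 0.83 for ribosomal proteins, -0.37 for collagens, 0.35 for oxidative phosphorylation and 0.14 over the members.

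The members furthest apart, among those with at least 100 reads, were often in antibody gene stretches. Of the 10 highest in the first field 5 lay on chromosome 12 between the matched junctions of Ighm and Vipr2, as did 3 of the 10 highest in the second. This is the side of the heavy chain locus with the variable segments, each of which has a short intron between its leader exon and its variable exon. The stretch held 73 members, of which 72 were flagged C=1 and 65 were 79 to 87 nt long. At chr12:115434957-115435043 an 87 nt member had 2 and 1120 reads. At chr12:115117611-115117694 an 84 nt member had 1530 and 20, and at chr12:115895869-115895951 an 83 nt member had 4589 and 124. Of the 73 members 40 (54.8%) were at least 2-fold apart, against 24.2% of all junctions and 17.5% of members, 30 with more in the first field and 10 with more in the other. Under median-ratio scaling these counts were 28 and 10. Both directions occurred side by side.

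Outside that stretch, a 74 nt member of Hyi, a hydroxypyruvate isomerase homolog (chr4:118032837-118032910, plus strand), had 0 and 121 reads. With the first field set to a floor of 3 reads the second was 36.03-fold higher, and the exact 95% interval of the ratio began at 28.9-fold. From the same donor a 1384 nt junction had 215 and 105 reads. A 1226 nt junction that starts after an 84 nt exon and ends at the same acceptor had 3 and 190. The short member and this junction frame that exon, which was thus joined in the second field and hardly in the first, while gene levels were 39.8 and 33.1 TPM. The skeletal muscle actin gene Acta1 had 2 members in the same direction, of 97 nt with 18 and 206 reads (10.2-fold, 6.31 to 17.6) and of 76 nt with 26 and 225. Its gene levels were 3.61 and 26.4 TPM. Card9, an adaptor of antifungal signalling, had 19 and 92 reads over a 66 nt member, with gene levels of 10.04 and 34.35 TPM. The lipid acyltransferase gene Lpcat4 had 180 and 802 over 87 nt, with gene levels of 41.86 and 122.08 TPM. In the other direction the nucleoside transporter gene Slc28a1 had 113 and 1 reads over an 86 nt member (126.5-fold, 22.3 to 5040). Its gene levels were 26.61 and 1.13 TPM. The glucose transporter gene Slc2a2 had 204 and 13 over 90 nt, with gene levels of 36.7 and 2.05 TPM. The glutathione transferase gene Gstm3 had 109 and 6, with gene levels of 68.19 and 9.42 TPM.

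On chromosome 8, 2 members of 78 nt flagged A=0 and C=0, at 22619777-22619854 and 22639551-22639628, had no first-field reads and 225 and 226 second-field reads. A junction of 19852 nt from the start of the earlier to the end of the later also had 0 and 225. In Mgam, which encodes the brush border enzyme maltase-glucoamylase, 91 nt members began at 40642351, 40678919 and 40707721 of chromosome 6 with 999, 756 and 1401 first-field reads and 551, 268 and 867 second-field reads. Longer junctions of 36659, 65461 and 28893 nt joined the start of an earlier to the end of a later 91 nt member at 863 and 516, 843 and 502, and 753 and 264 reads. The sources used here do not say how reads that fit several copies were counted, so members of such copies are uncertain.

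A member can compete with other junctions for an end. Of the members 1215 (14.1%, 13.4 to 14.9) shared a start or end with another junction of at least 10 reads, against 18.7% in the next length class and 20.9% at 200 nt and longer. The share was 45.7% when a partner needed 1 read and 5.84% when it needed 100. A shared donor was found for 759 members and a shared acceptor for 566. Among those with a shared donor, the nearest other acceptor was within 30 nt for 385, and exactly 3 nt away for 95 (12.5%). Among those with a shared acceptor, the nearest other donor was within 30 nt for 186, was 4 nt away for 51 and 3 nt away for 8. Within coding sequence, alternative acceptors 3 nt apart add or remove a codon, and alternative donors 4 nt apart shift the frame. Of the 385 distances within 30 nt between acceptors 197 (51.2%) were divisible by 3, and of the 186 between donors 48 (25.8%). Of the 197, 95 were the distance of exactly 3 nt. These counts take members of every flag, so gaps flagged A=0 and C=0 were not left out. Among members flagged A=1 alone 9.75% shared an end. Their distances were not counted apart, so whether these shares hold for annotated introns was not tested. The median member with a shared end took 51.1% of the reads at that end, and 364 of the 1215 took at least 90%. In Smim22, which encodes a small membrane protein of epithelia, an 83 nt member flagged A=0 (982 and 1470 reads) shared its acceptor with junctions of 553, 646 and 927 nt that had 171, 39 and 23 reads summed over both fields.

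The series also holds contigs, stretches of the genome covered by reads. At least 1 base of a contig on the same strand fell within 98.5% of members, as it did for 98.4% of both longer classes. A contig ran across the whole junction for 72.4% of members (71.5 to 73.4), 59.6% in the next length class and 14.6% at 200 nt and longer. The share rose with support, from 58.9% of members with fewer than 100 reads to 82.5% with 100 up to just under 1000 and 94.8% of the 732 with 1000 or more. At 1000 reads and more it was 89.1% for the next length class. Of the members flagged A=0 and C=0 94.2% lay whole within a contig, against 70.6% of those flagged A=1. Median length was 61 nt in the former and 86 nt for A=1 with C=1, and the part of length in these shares was not tested.

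Lengths divisible by 3 were counted next. Of the members 33.8% (32.7 to 34.8) had a length divisible by 3, beside 31.3% (30.5 to 32.2) in the next length class and 33.7% of longer junctions. Among members the share was 32.6% (31.6 to 33.7) for A=1, 38.2% (33.6 to 42.9) for A=0 with C=1 and 48.2% (43.7 to 52.8) for A=0 with C=0. Of the 260 members of 31 to 59 nt 130 were divisible by 3.

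The 481 members flagged A=0 and C=0 fell in 291 places when those up to 500 nt apart were joined, and 247 of these places held 1 member. The largest clusters were on the minus strand of chromosome 5. There, 137632786-137633433 held 45 members with 13547 reads and 137625340-137627274 held 29 with 2447, both between the junctions matched to the membrane mucin gene Muc3 and to Ache. Mucin genes are known for tandem repeats that encode their glycosylated stretches. Of these 74 members 57 were 36, 54, 72 or 90 nt long, multiples of 18, with 28 of them at 54 nt. Elsewhere 42 of 407 such members (10.3%) were divisible by 18 and 42.8% by 3. Both fields held these members, with 9413 and 6581 reads. The most abundant, 54 nt at 137632905-137632958, had 1847 and 1214 reads.

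**Figure D4:**
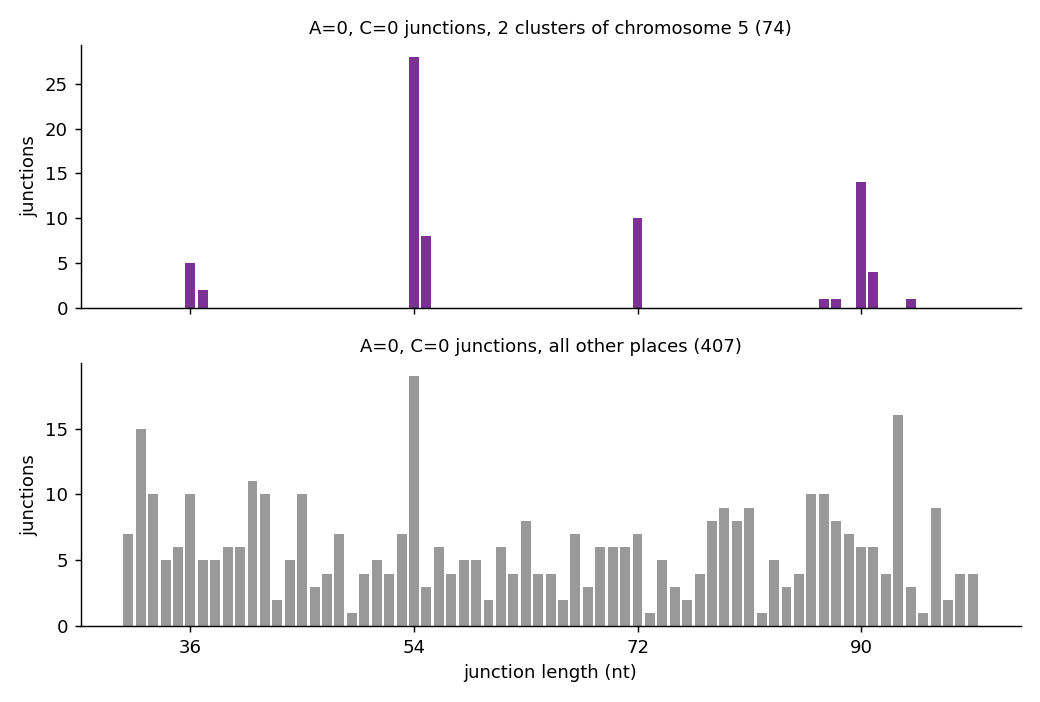
Number of members flagged A=0 and C=0 (y axis) at each length in nt (x axis), for the 74 in the 2 clusters of chromosome 5 (top) and the 407 elsewhere (bottom); ticks are 18 nt apart. In the top panel the bars at 36, 54, 72 and 90 nt hold 57 of the 74 members, with 28 at 54 nt.

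Other clusters had their own patterns. On chromosome 16, 11144141-11144285 held 14 members of 31 to 84 nt with 848 and 738 reads, on the strand opposite to Zc3h7a. On chromosome 9, 8 members at 56071509-56071625 within Peak1 had 2543 reads, most of them in a 33 nt member (1005 and 1269). On chromosome 3 the same 7 members, of 42, 54, 70 and 71 nt, occurred at the same relative positions in 92023074-92023185 and 92057887-92057998. Summed over both fields, the earlier place had 671 reads and the later 701. The mitochondrial genome, whose genes have no introns, held members of 51, 61 and 67 nt at positions 6451 to 6522, with 483 reads. Members of the same 3 lengths lay on chromosome 1 at 24622894-24622960, minus strand, with 163 reads. How reads were shared between such alike places is not known from the list.

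Unmatched members could be placed inside an annotated exon by their distance to a matched junction, which gave 163 with A=0 and C=0 in 124 genes and 104 with A=0 and C=1 in 91 genes. Some of these exons belong to transcripts annotated as retained intron, such as those used for Man2c1, Mink1 and Actb. A gap there can lie over an intron, and such cases were not separated. All 104 flagged C=1 began GT and ended AG, and none of the 163 flagged C=0 did. Identity between the sequences at both ends was then measured as the number of bases by which the gap could be slid without changing the joined sequence. This number was at least 4 for 100 of the 163 (61.3%) and for 324 of the 1592 GT-AG introns (20.4%), with medians of 4 and 2. The highest value was 8 among the introns, while 9 of the 163 (5.52%) reached 10 or more. So did 8 of the 104 exonic members flagged C=1 (7.69%), although their median was 2 and 18.3% of them reached 4. Among the C=0 members, a 32 nt member in the deacetylase gene Sirt2 (42 and 51 reads) had 29 identical bases, and a 40 nt member in the kinase gene Mink1 (72 and 83 reads) had 15. The C=0 members in exons had a median of 4.25% of the reads of the nearest matched junction, and 43 of them had at least 10%. Of the 62 within coding exons 29 had a length divisible by 3.

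**Figure D5:**
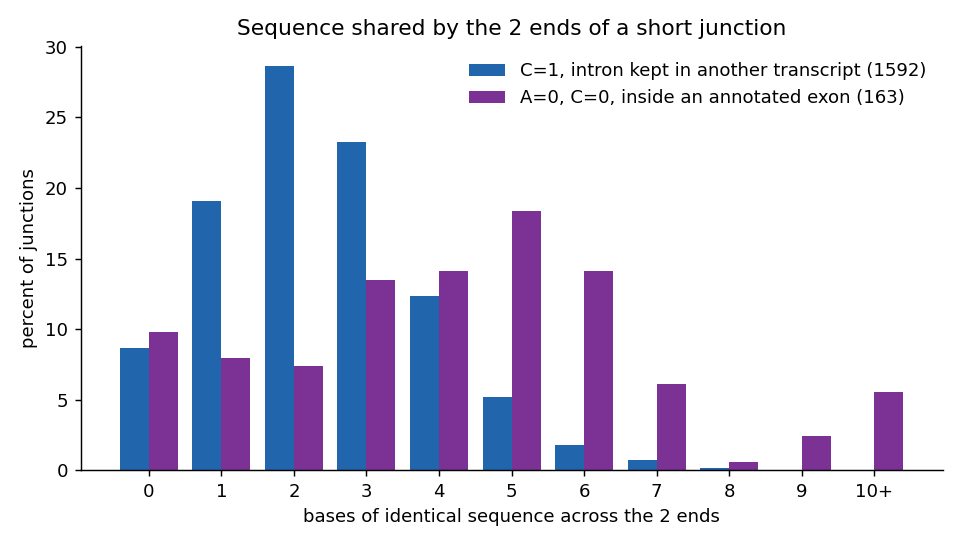
Percent of junctions (y axis) by the number of identical bases across both ends (x axis, 10 or more pooled), for 1592 GT-AG introns (blue) and 163 members flagged A=0 and C=0 inside annotated exons (purple). The introns peak at 2 bases with 28.6% and the exonic members at 5 bases with 18.4%. Some of the exons are those of retained-intron transcripts.

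The fifth most abundant member belonged to this set, as a 36 nt gap in a coding exon of Lypd8 (ENSMUSG00000013643.13), at chr11:58203754-58203789 on the plus strand of mm9. Lypd8 encodes a protein of gut epithelium that binds flagellated bacteria. Below, the stretch is in capitals with 15 bases of the coding exon on each side, from mm10 chr11:58390252-58390287, shown because it lacks GT and AG at its ends. Beside it are the 51 nt member in a coding exon of Hjurp, a centromere histone chaperone gene, and the 94 nt member in a coding exon of the antibody constant gene Igha.
Lypd8, 36 nt: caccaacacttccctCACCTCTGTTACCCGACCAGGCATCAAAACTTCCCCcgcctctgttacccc
Hjurp, 51 nt, chr1:88266279-88266329: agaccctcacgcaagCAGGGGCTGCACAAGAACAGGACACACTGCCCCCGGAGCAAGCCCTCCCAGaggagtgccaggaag
Igha, 94 nt, chr12:113259559-113259652: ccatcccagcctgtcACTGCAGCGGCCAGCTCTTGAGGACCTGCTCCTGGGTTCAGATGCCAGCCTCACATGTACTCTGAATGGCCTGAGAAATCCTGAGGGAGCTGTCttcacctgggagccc

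The Lypd8 gap had 6943 and 20246 reads (log2 ratio 1.38). It could be slid by 1 base, below the median of 4 for its class. The 8 bases before it matched its own last 8 at 7 positions, and its first 8 matched the 8 bases after it at 7. The matched junction that ends 175 bases before it had 18508 and 32655 reads, so the gap had 37.5% (first field) and 62.0% (second field) of that junction's reads. Reads that cross the stretch without a gap are not counted in the list, so these are ratios and not the share of RNA without it. A further 36 nt gap starting 8 bases earlier had 12 and 82 reads. The Hjurp member had 130 and 5 reads (29.1-fold, 12.2 to 91.2) and was flagged A=1 and C=0. The Igha member had 72 and 70 reads, or 0.0813% of the nearest matched junction, and 10 members flagged A=0 and C=0 lay in or near this gene.

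At the edges of the rule, values on either side were as follows. There were 216 junctions of 99 nt, with a median of 110 reads and 90.7% flagged A=1, and 208 of 100 nt, with a median of 118.5 reads and 91.8% flagged A=1. The 175 members with exactly 10 reads were flagged A=1 in 61.7%, and the 214 short junctions with 9 reads, just outside, in 47.2%. Of the 38582 junctions below 100 nt at any support 18790 had a single read.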

How the data were processed

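Members, gene lists and named junctions were chosen with earlier results of these data known. The authors deposited 1 junction list and 1 contig list on mm9. The junction list holds whole-number read counts, equal for every junction to the sum of the 2 fields in its name, and the authors deposited beside it a score per junction whose making is not stated per the labels, and which no result uses. The contig level is a deposited signal, of which only positions were used. Gene tables on mm10 hold expected counts, TPM and FPKM deposited by the authors, and the transcript tables also a percent of each gene's TPM, which was not used. No source used here names the aligner or caller of these lists.

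Since no mm9 genome was used, no coordinate was converted. A junction was matched to a GENCODE M21 intron by chromosome, strand, its length, the exact length of the exon to a linked junction (up to 2000 nt) and that junction's length. Host genes needed the same spacing in at least 2 matched introns, and anchors for placing unmatched members in exons at least 3, both added after seeing the data. Intervals are exact binomial (Clopper-Pearson, 95%) and, like the floor of 3 reads, cover counting error only. Named were the 10 members with most reads, the 10 shortest, the 10 largest field ratios each way at 100 reads or more, the edges of the rule, and the top 3 of each list, except items that are not reported here. Others, among them the short A=1 members, Smim22, Mgam, the clusters and the printed sequences, were chosen after their values were seen. Fold calls and the match were tested on simulated data. Computations used scipy 1.17.1, pandas 2.3.3 and numpy 2.4.6 under Python 3.11.15, and plots matplotlib 3.10.9.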

Additional observations from a re-analysis of the deposited data

How the results depend on the processing

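The 2 read fields are 1 library against 1, so no difference between them has a replicate check, and p-values were not computed. No paired analysis was possible because there is 1 group and no source used here ties a field to a replicate. Of 35 alternatives over 8 values 22 stayed within the interval of the value reported, or within 1.5 times a count. The number of members was 10469 at a minimum of 5 reads and 7440 at 20, and 7342 to 7512 when 1 field alone had to reach 10 reads. The share of members 2-fold apart was 16.4% with median-ratio scaling, 13.6% at 20 reads, 7.68% at 100 reads and 15.6% for A=1 alone. The share with a shared end was 45.7% with partners of 1 read, 5.84% with partners of 100 reads, 12.5% for members of 20 reads and 9.75% for A=1 alone. Lengths divisible by 3 made up 32.6% for A=1 alone. A contig held the whole junction for 72.4%. The match gave 75.2% with 2 linked neighbours and 85.8% without chromosome and strand. Host genes at 1 TPM or more were 97.5% to 98.2% with 1 library left out. The alternatives for A=1, for 1 library, for even spacing and without the chromosome 5 clusters or the heavy chain stretch were chosen after seeing the data. The cause of these changes was not tested.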
